A study of Drosophila melanogaster with 6 samples.

Results

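Genes for translation initiation factors (eIF) and elongation factors (eEF) were read in whole heads of adult Drosophila melanogaster at 2 ages. A gene was taken as a member when the platform's probe table gave its probe set a single symbol starting with eIF or eEF, and a gene with several probe sets was represented by the one whose mean level on the 6 arrays was highest. The choice used no difference between the ages. It gave 45 genes on 49 probe sets, of 11982 named genes and 18769 probe sets in all. The 45 genes are 1 subunit of eIF2, 5 of eIF2B, 16 genes of eIF3, 12 named eIF4, 6 other initiation factors, 3 of eEF1 and 2 other elongation factors. A further 7 genes with such symbols in the RefSeq table (eIF1A, eIF2alpha, eIF2gamma, eIF4H1, eEF1alpha1, eEF1beta and eEF2) were not the single symbol of any probe set in the probe table. They were not analysed, and whether any of the 4720 probe sets without a symbol matches them was not checked.

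Protein synthesis starts when eIF2 brings the initiator tRNA to the small ribosomal subunit, eIF3 and eIF1 hold that subunit ready, and the eIF4 factors recruit it to the cap of the messenger RNA. eIF2B reloads eIF2 with GTP after each round, and this is the step that stress kinases block by phosphorylating eIF2. Elongation then needs eEF1, which delivers aminoacyl-tRNAs to the ribosome. Some fly factors, such as eIF4E3, are known for roles in the male germ line, a tissue that a head sample should lack.

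The young group was flies of 2 days and the aged group flies of 25 days, with 3 arrays each. All flies had the W* background and carried P{GawB}elavC155, a GAL4 enhancer trap at the neuronal gene elav, so both ages share that insertion. They were kept at 25 °C in 12 hr light and dark, and RNA of frozen heads was hybridised to Affymetrix arrays. Sex is not labelled. Whether the 3 arrays of an age stem from separate flies or from 1 pool of RNA is not labelled either, so a p-value here speaks for array-to-array spread alone, which may be technical. Levels are log2 RMA values (a step of 1 means 2-fold), and a level below the median of all probe sets (4.90) lies near background, where differences are compressed. With 3 arrays per age, their number limits the precision.

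The median level per array ran from 4.85 to 4.93. The 5 neuronal, 5 photoreceptor and 5 glial markers measured were all above the median of all probe sets at 1 age or more, whereas all 6 testis and all 4 ovary markers had means below it at both ages. Young replicate 2 stood apart on 2 of 6 testis markers, with ocn at 6.21 and Mst87F at 5.10 (2.56 to 3.03 elsewhere), and on 2 of 4 midgut markers, with alphaTry at 7.79 and betaTry at 8.12 (3.41 to 4.02 elsewhere). The other 4 testis markers were at 2.72 to 2.94 on that array, with aly and can higher on another array, and of the other midgut markers Vha100-4 was higher on both other young arrays. The mean levels on it were 3.78 over the testis markers (2.67 to 2.78 elsewhere) and 5.63 over the midgut markers (3.41 to 3.66 elsewhere). The young arrays also differed among themselves on the head fat body markers, with mean levels of 8.71, 9.60 and 10.76 against 9.18 to 9.38 in aged heads. Of these, the yolk protein genes, known for high expression in females, read 4.02, 7.76 and 10.17 (Yp1) and 3.95, 5.24 and 8.54 (Yp2) on young replicates 1 to 3. The part of these differences between arrays in the results was not tested. Young replicate 2 exceeded every other array by 1 or more at 155 probe sets and aged replicate 3 did so at 25. Neither did so at any member. That step is larger than any member's difference between the ages (0.94 at most), so smaller shifts of these arrays would not show. Between the ages, 3 of 3 muscle markers fell (median difference -1.39, mean level 9.58 to 9.78 in young and 7.85 to 8.57 in aged heads), 3 of 5 neuronal markers fell and 0 rose (9.68 to 9.81 and 9.43 to 9.60), and 3 of 4 haemocyte markers rose while 1 fell (7.77 to 7.89 and 7.92 to 8.18). Of the photoreceptor and of the glial markers, 1 of 5 fell and 0 rose. Of 6 head fat body markers, 1 rose and 0 fell, and 0 of the testis, ovary and midgut markers passed. Of all named genes, 15.8% rose and 10.7% fell, and of those at or above the median level at 1 age or more, 23.1% rose and 14.2% fell. In whole heads fewer cells of a type and less RNA per cell cannot be told apart, and the part of these shifts in the differences below was not tested. On aged replicate 1 the hybridization controls were near background (cre at 3.34, against 12.84 to 13.38 on the other arrays).

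Aged heads had higher levels of 11 translation factor genes and lower levels of 5, and 29 did not pass (limma, Benjamini-Hochberg adjusted over all probe sets at 0.05). With each array centred on its median, 9 rose and 8 fell. The genes that rose belong to eIF2 (eIF2beta), its exchange factor (eIF2Balpha and eIF2Bepsilon), eIF3 (eIF3f1 and eIF3j), the eIF4 group (eIF4B and eIF4E6), subunit joining and initiator tRNA delivery (eIF2A, eIF5B and eIF6) and eEF1 (eEF1gamma). Those that fell were eIF3a, eIF3k, eIF3l, eIF4EHP and eIF4E5. Of these, eIF4EHP is counted by its brighter probe set alone: its other probe set rose (0.65, limma adjusted p = 0.0315), so the gene has no clear direction. The differences were small: those that passed were 1.17-fold to 1.92-fold, and 0 reached 2-fold. The share of members that passed was 35.6%, against 26.5% of all named genes and 21.7% of all probe sets. The share that rose was 24.4%, against 15.8% of genes and 13.0% of probe sets, and the share that fell was 11.1%, against 10.7% and 8.7%. Among genes at or above the median level at 1 age or more, 15 of 37 members passed, against 37.3% of such genes: 11 rose (23.1% of such genes) and 4 fell (14.2%). The members' counts thus lie near the background of genes of that level. The median difference of the 45 members was 0.03 and that of all named genes -0.0031, and for the 37 members and for all genes at that level it was 0.07. The 3 young and 3 aged values were fully separate at 31 of the 45 members (68.9%), against 47.5% of all named genes and 60.9% of those at or above the median level. The 45 include 8 members below that level at both ages, so the last 2 sets are not alike.

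**Figure D1:**
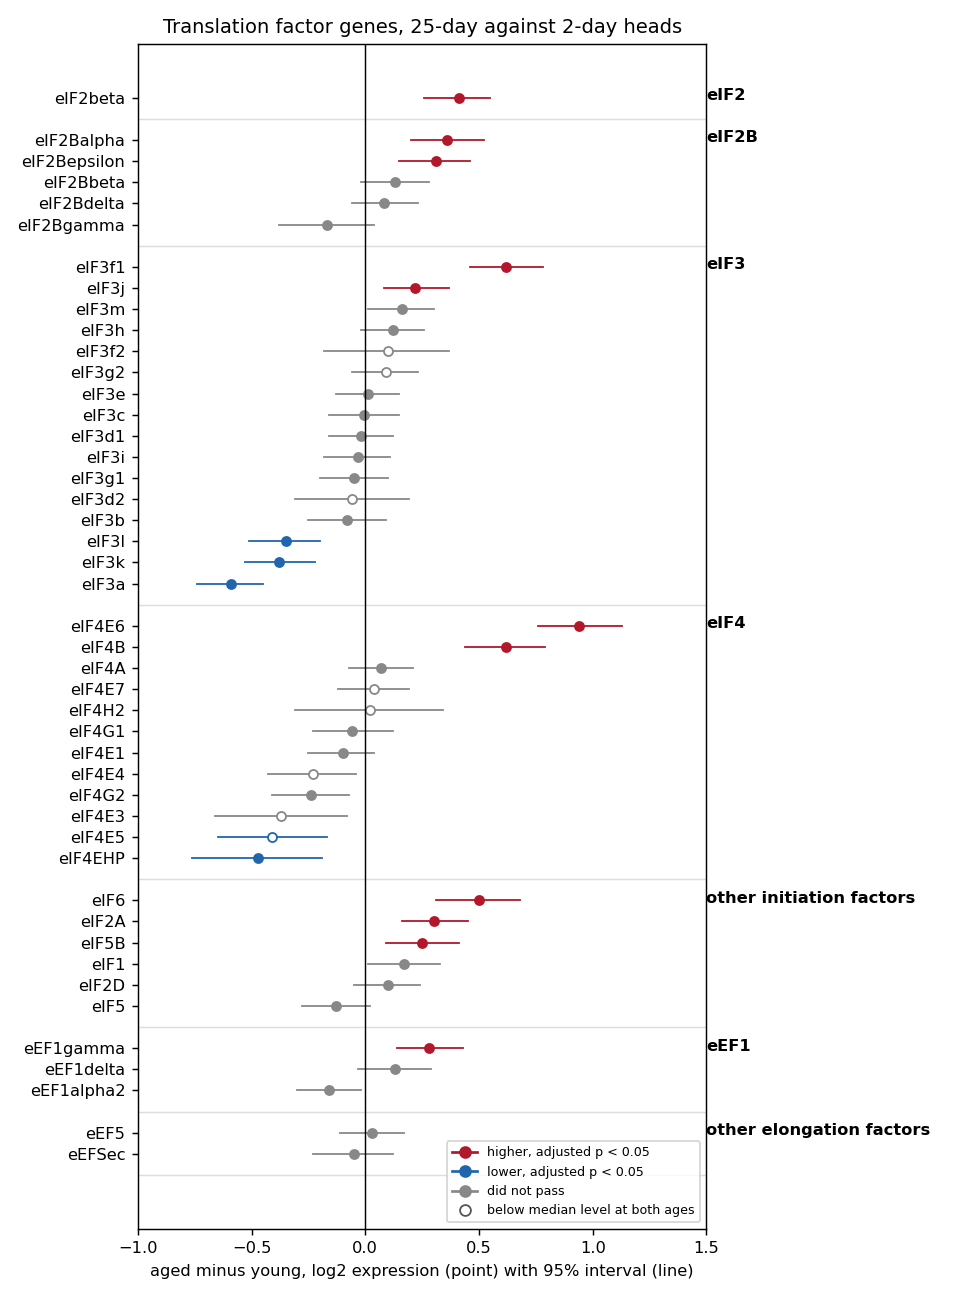
Difference between 25-day and 2-day heads (aged minus young, log2 expression, points) with its 95% limma interval (lines) for the 45 genes by factor complex, coloured by the call and hollow where both ages lie below the median level. The eIF3 genes run from -0.59 (eIF3a) to 0.62 (eIF3f1), while eIF2B and the other initiation factors hold 2 and 3 genes that rose and 0 that fell.

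Of eIF2, the factor that carries the initiator tRNA, only the beta subunit had a probe set under its symbol, and it rose in aged heads. The levels of eIF2beta (CG4153) were 9.50, 9.49 and 9.50 on the young arrays of replicates 1 to 3 and 9.94, 9.85 and 9.92 on the aged arrays. All aged arrays were above all young arrays, by far more than the spread at either age, with a difference of 0.41 ± 0.06 (log2, ± SE, n = 3 arrays per age, limma adjusted p = 0.00455), or 1.33-fold. The call held under every alternative tried.

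The exchange factor eIF2B has 5 subunits, of which alpha, beta and delta form the regulatory part that senses phosphorylated eIF2, and gamma and epsilon the catalytic part. Of the 5, 2 rose, 0 fell and 3 did not pass, with a median difference of 0.13, and each part held 1 of the 2. The regulatory subunit gene eIF2Balpha (CG7883) read 7.89, 7.86 and 7.92 in young heads and 8.23, 8.18 and 8.34 in aged heads. That is a rise of 0.36 ± 0.07 (limma adjusted p = 0.0111), with no overlap between the ages. For eIF2Bepsilon (CG3806), which holds the exchange activity, the levels were 7.61, 7.70 and 7.69 in young heads and 7.95, 7.92 and 8.04 in aged heads. The ages were again separate, and the rise was 0.31 ± 0.07 (limma adjusted p = 0.0179). Its catalytic partner eIF2Bgamma stood at 8.02 ± 0.12 and 7.85 ± 0.11 (mean ± SD, n = 3), a difference of -0.17 with a 95% interval of -0.38 to 0.04, and the ages overlapped. The differences of eIF2Bbeta (0.13) and eIF2Bdelta (0.08) did not pass. eIF2Bepsilon did not pass without aged replicate 1 (limma adjusted p = 0.0607) or aged replicate 3 (0.0602), and neither eIF2B gene passed on the 4 arrays other than young replicate 2 and aged replicate 3 (0.0706 for eIF2Balpha and 0.080 for eIF2Bepsilon).

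eIF3 is the largest initiation factor, a scaffold on the small ribosomal subunit, and its genes went both ways. Of 16 genes, 2 rose, 3 fell and 11 did not pass, and the median difference was -0.01. In mammals, subunits a, c, e, f, h, k, l and m form a shared core, b, g and i form a further module with the tail of a, d sits at the periphery and j is loosely bound.

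Within that core, eIF3a, eIF3k and eIF3l fell. The largest of the subunits, which organises the complex, is encoded by eIF3a (CG9805), and its levels were 10.05, 10.12 and 10.12 in young heads and 9.50, 9.51 and 9.48 in aged heads. The arrays of each age lay close together (SD 0.04 and 0.01), and all aged arrays were below all young ones, with a fall of 0.59 ± 0.06 on the log2 scale (limma adjusted p = 0.00112). This call, too, held under every alternative tried. The gene of the accessory subunit eIF3k (CG10306) read 9.88, 9.86 and 9.90 in young heads and 9.58, 9.50 and 9.43 in aged heads. For eIF3l (CG5642), whose product neighbours that of eIF3k in the complex, the values were 11.61, 11.52 and 11.49 against 11.24, 11.16 and 11.18. Neither gene had overlapping ages, and the differences were -0.38 ± 0.07 (limma adjusted p = 0.00817) for eIF3k and -0.35 ± 0.07 (0.010) for eIF3l. Both kept their calls without any single array and lost them on the 4 arrays other than young replicate 2 and aged replicate 3 (0.0513 and 0.0579).

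The core subunit gene eIF3f1 (CG9769) moved the other way. Its levels were 10.49, 10.39 and 10.39 in young heads and 11.10, 11.01 and 11.01 in aged heads, a rise of 0.62 ± 0.07 (limma adjusted p = 0.00141). The separation of the ages was several times the spread within them, and the call held under every alternative tried. The gene of the loosely bound subunit eIF3j (CG12131) read 9.46, 9.52 and 9.42 in young heads and 9.66, 9.71 and 9.70 in aged heads. The ages did not overlap and the rise was 0.22 ± 0.06 (limma adjusted p = 0.0421). The call was lost with any 1 array left out (0.0532 to 0.134) and with arrays centred on their medians (0.093).

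The other 8 eIF3 genes with levels above the median (eIF3b, eIF3c, eIF3d1, eIF3e, eIF3g1, eIF3h, eIF3i and eIF3m) did not pass, with differences from -0.08 (eIF3b) to 0.16 (eIF3m). Their 95% intervals lay between -0.25 and 0.30, and changes beyond these bounds lie outside the intervals. Of the 8, eIF3m (limma adjusted p = 0.119) passed, with the aged level higher, with a variance trend (0.0245) or at or above the median level alone (0.0446). Of the module of b, g and i, 0 genes passed. The paralogs eIF3d2, eIF3f2 and eIF3g2 were below the median level at both ages, at 2.94 to 3.49, and their differences (-0.06, 0.10 and 0.09) did not pass.

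The eIF4 group binds the cap and unwinds the start of the messenger RNA. Of 12 genes, 2 rose, 2 fell and 8 did not pass, with a median difference of -0.08, and with arrays centred on their medians 2 rose and 5 fell. These counts take eIF4EHP by its brighter probe set. The genes for the main cap-binding protein eIF4E1, the scaffold eIF4G1 and the helicase eIF4A did not pass, with differences of -0.10, -0.06 and 0.07. Their 95% intervals were -0.25 to 0.04, -0.23 to 0.12 and -0.07 to 0.21.

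eIF4B, a cofactor of the eIF4A helicase, rose. eIF4B (CG10837) has 4 probe sets, and the brightest read 10.48, 10.50 and 10.35 in young heads and 11.13, 11.07 and 10.98 in aged heads. This is a rise of 0.62 ± 0.07 (limma adjusted p = 0.00194) with separate ages. Of the other 3 probe sets of eIF4B, 2 rose as well, by 1.04 ± 0.10 and 0.50 ± 0.08 (limma adjusted p = 0.00090 and 0.00455), and the one below the median level differed by 0.37 ± 0.18 and did not pass (0.201). The aged mean was higher on all 4 probe sets, and the size of the difference varied between them.

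The eIF4E paralogs did not move together. eIF4E6 (CG1442), a paralog of the cap-binding protein, had the largest difference of all members. Its levels were 4.79, 4.84 and 4.73 in young heads, just under the median of all probe sets, and 5.73, 5.63 and 5.84 in aged heads, a rise of at least 0.94 ± 0.08 (limma adjusted p = 0.000452) or 1.92-fold. The ages were clearly apart and the call held under every alternative tried. eIF4E5 (CG8277) was dim at both ages, with 2.92, 3.31 and 3.04 in young heads and 2.71, 2.66 and 2.67 in aged heads. It fell by 0.41 ± 0.10 on the log2 scale (limma adjusted p = 0.028). Its highest value was that of young replicate 2, and without that array the fall was 0.30 and still passed (limma adjusted p = 0.0346).

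The dim paralogs eIF4E3 and eIF4E4 also had lower aged means. eIF4E3 (CG8023), known from fly male meiosis, read 3.61, 4.0 and 3.60 in young heads and 3.46, 3.24 and 3.40 in aged heads, and eIF4E4 (CG10124) read 3.95, 4.17 and 4.0 against 3.89, 3.81 and 3.73. Neither passed (limma adjusted p = 0.0755 and 0.0923, and 0.0388 and 0.048 with arrays centred on their medians). On eIF4E3, eIF4E4 and eIF4E5 young replicate 2 was the highest array. It was also the highest for the testis markers ocn, Mst87F, bam and dj, but not for aly or can. For bam (2.94, next array 2.89) and dj (2.72, next array 2.71) the margin was small. The part of that array in the differences of these eIF4E genes was not tested. eIF4E5 did not pass without young replicate 3 (0.0617), without any single aged array (0.0797 to 0.0904) or after quantile normalization (0.0679). The dim eIF4E7 and eIF4H2 genes differed by 0.04 and 0.02 and did not pass.

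eIF4EHP encodes a protein that binds the cap but not eIF4G and, in fly embryos, represses translation of hunchback and caudal. Its 2 probe sets went in opposite directions, and both passed. The brighter one read 7.42, 7.03 and 7.15 in young heads and 6.74, 6.88 and 6.57 in aged heads, a fall of 0.47 ± 0.12 on the log2 scale (limma adjusted p = 0.032). The dimmer one read 5.94, 5.82 and 5.93 against 6.85, 6.64 and 6.15, a rise of 0.65 ± 0.17 (0.0315). The ages were separate on each, so no direction can be given for eIF4EHP (CG33100) as a gene. Of 1094 genes with several probe sets, 28 (2.56%) had calls in both directions. The fall was lost without young replicate 1 (0.0609), young replicate 3 (0.0722), aged replicate 1 (0.0922) or aged replicate 3 (0.101).

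eIF4G2, which fly males need for meiosis, read 9.10, 9.21 and 9.05 in young heads and 8.87, 8.95 and 8.83 in aged heads. Young replicate 2 was again the highest array, and its part in the difference was not tested. The ages did not overlap and the difference was -0.24 ± 0.07, but it did not pass (limma adjusted p = 0.0568). It passed with a variance trend (0.0168), at or above the median level alone (0.0218), with arrays centred on their medians (0.0297) and after quantile normalization (0.0314), each time with the aged level lower.

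**Figure D2:**
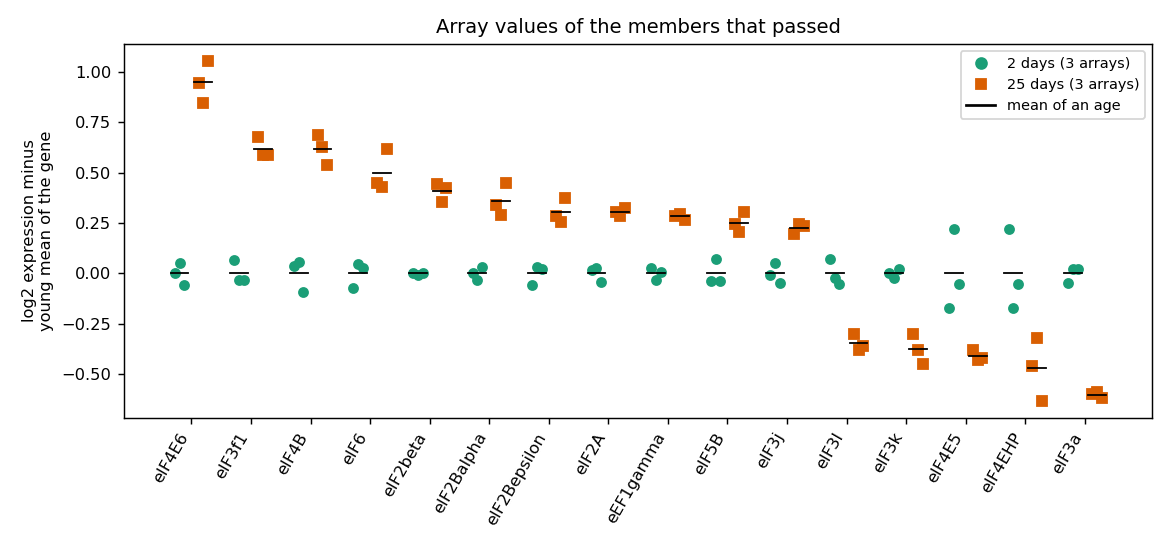
Level of each array (log2 expression) minus the young mean of the gene, for the 16 members that passed, with circles for the 3 young arrays, squares for the 3 aged arrays and bars for the means. Ages are separate at every gene, eIF4E6 lies highest at 0.94, and the young arrays of eIF4E5 and eIF4EHP are the most spread, with SDs of 0.20.

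eIF4A also offered a view along its transcript, because the arrays carry control probe sets against the start, middle and end of it. The probe set that stands for eIF4A (CG9075) read 12.52, 12.48 and 12.50 in young heads and 12.52, 12.59 and 12.59 in aged heads. The 3' control probe set was likewise close at both ages, at 12.50 ± 0.09 and 12.58 ± 0.02 (mean ± SD, n = 3). The middle one stood at 12.04 ± 0.13 and 12.50 ± 0.05, and the 5' one at 10.67 ± 0.23 and 11.45 ± 0.12. The same transcript thus differed between the ages by 0.08 at its 3' end, 0.47 in its middle and 0.78 at its 5' end. The 3' minus 5' difference of eIF4A was 1.52, 2.04 and 1.93 on the young arrays and 1.02, 1.29 and 1.09 on the aged arrays, without overlap (two-sided exact permutation p = 0.10, the smallest that 3 against 3 arrays allow). It was lower in aged heads also for Actin (-0.83), Gapdh (-0.22) and, on average, 4 bacterial spike-in transcripts (-0.90), each with the same exact permutation p of 0.10. A difference between the ages thus varied with the place of the probe set on the eIF4A transcript, and where the probe sets of the other members lie is not in the files used here. The part of this gradient in the differences of the other members was not tested. Every difference between the ages here compares the same 2 sets of arrays, so age and the handling of the arrays cannot be told apart.

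**Figure D3:**
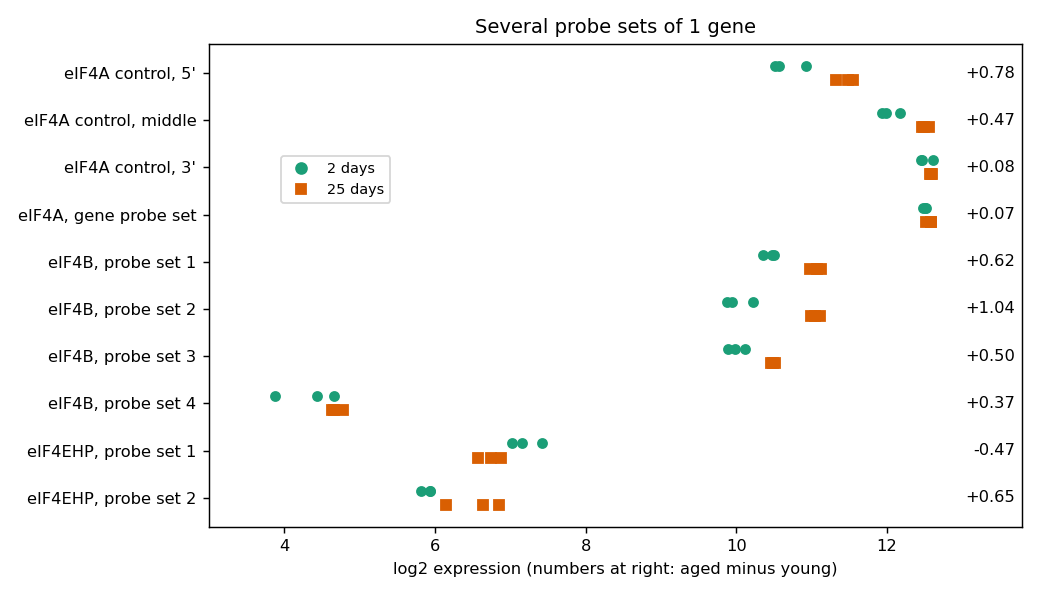
Levels of each array (log2 expression, circles 2 days, squares 25 days) on the control and gene probe sets of eIF4A and on the probe sets of eIF4B and eIF4EHP, with aged minus young at the right. The difference of eIF4A goes from 0.08 at the 3' end to 0.78 at the 5' end, and the probe sets of eIF4EHP differ in sign (-0.47 and 0.65).

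Among the other initiation factors, 3 of 6 rose, 0 fell and 3 did not pass, with a median difference of 0.21. eIF6 (CG17611) keeps the large ribosomal subunit from joining until it is released, and its levels were 7.32, 7.44 and 7.42 in young heads and 7.84, 7.82 and 8.01 in aged heads. It rose by 0.50 ± 0.08 (limma adjusted p = 0.00511), with separate ages, under every alternative tried. eIF2A (CG7414), which can deliver initiator tRNA without eIF2, read 10.70, 10.71 and 10.64 against 10.99, 10.97 and 11.01. The spread within an age was small beside the rise of 0.30 ± 0.06 (limma adjusted p = 0.0125), which did not pass without aged replicate 1 (0.0559) or on the 4 arrays other than young replicate 2 and aged replicate 3 (0.066). eIF5B (CG10840), the GTPase of subunit joining, read 8.68, 8.79 and 8.68 in young heads and 8.96, 8.92 and 9.02 in aged heads. The ages did not overlap and the rise was 0.25 ± 0.07 (limma adjusted p = 0.0361), a call that did not survive the loss of young replicate 1, young replicate 3 or any aged array (0.0698 to 0.110) and with arrays centred on their medians (0.0714).

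The other initiation factors eIF1, eIF5 and eIF2D did not pass. eIF1, which guards the fidelity of start codon choice, differed by 0.17 (95% interval 0.01 to 0.33, limma adjusted p = 0.127) and passed with a variance trend (0.0268). eIF5, the activator of the GTPase of eIF2, differed by -0.13 (-0.28 to 0.02), and eIF2D, an alternative carrier of tRNA, by 0.10 (-0.05 to 0.24).

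Of eEF1, 1 of 3 genes rose, 0 fell and 2 did not pass. eEF1gamma (CG11901), a subunit of the exchange part of eEF1, read 11.73, 11.67 and 11.71 in young heads and 11.99, 12.00 and 11.97 in aged heads. The values were tight at both ages and the rise was 0.28 ± 0.06 (limma adjusted p = 0.0151). It did not pass without aged replicate 1 (0.065) or aged replicate 2 (0.0632), or on the 4 arrays other than young replicate 2 and aged replicate 3 (0.0789). eEF1alpha2, a form of the subunit that carries aminoacyl-tRNA, read 12.60, 12.57 and 12.56 in young heads and 12.42, 12.39 and 12.44 in aged heads. Its ages did not overlap, but the difference of -0.16 ± 0.06 did not pass (limma adjusted p = 0.103); it passed, with the aged level lower, with a variance trend (0.00794) or at or above the median level alone (0.0351). The exchange subunit gene eEF1delta differed by 0.13 (-0.03 to 0.29) and did not pass.

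The other elongation factors did not pass. eEFSec (CG9841), which delivers selenocysteine tRNA, read 5.26, 5.47 and 5.35 in young heads and 5.31, 5.33 and 5.29 in aged heads, with a difference of -0.05 ± 0.07 (limma adjusted p = 0.648) and overlapping ages. eEF5, the hypusine-bearing factor long called eIF5A, stood at 12.36 ± 0.03 and 12.39 ± 0.02 (mean ± SD, n = 3), and the 95% interval of its difference was -0.11 to 0.17.

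**Figure D4:**
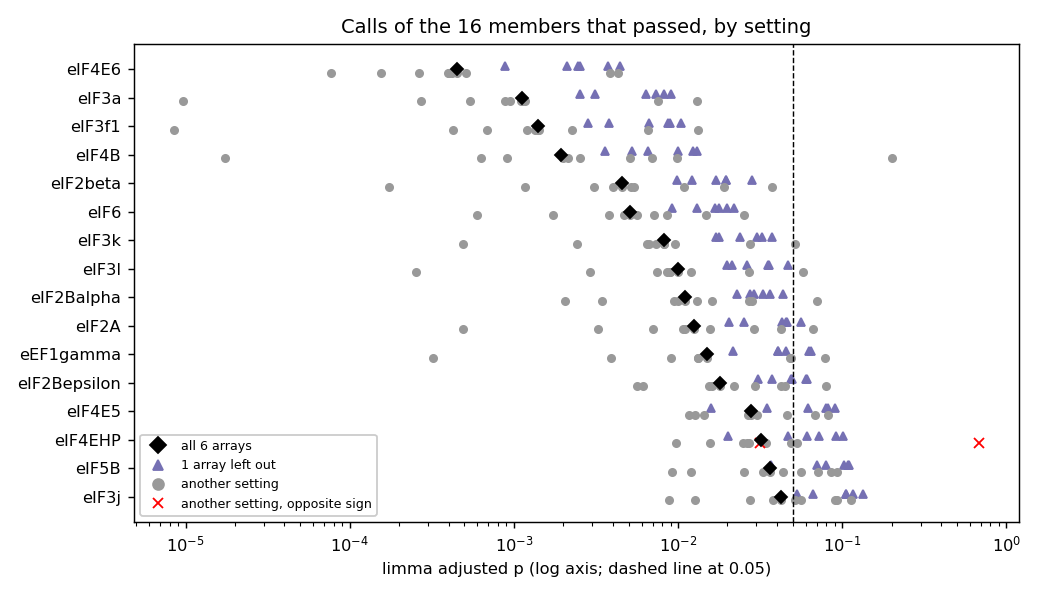
Limma adjusted p (log axis) of the 16 members that passed, on all 6 arrays (diamonds), with 1 array left out (triangles) and under other settings (circles, or crosses where the sign was opposite). Of the 16, 9 stayed under 0.05 whichever single array was left out and 5 (eIF2beta, eIF3a, eIF3f1, eIF4E6 and eIF6) did so in every setting.

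Genes around the factors were read from lists of the same pathway. Of all named genes, 15.8% rose and 10.7% fell. Among those at or above the median level at 1 age or more, 23.1% rose and 14.2% fell. Of 4 measured genes that act on eIF2 phosphorylation or downstream of it, 2 rose, 0 fell and 2 did not pass (median 0.23): the eIF2 kinase gene Gcn2 rose by 0.37 ± 0.08 (limma adjusted p = 0.0170) and crc, the fly ATF4, by 0.23 ± 0.06 (0.0330). Of 8 cap and poly(A) regulators, Lk6, the kinase of eIF4E, rose by 0.44 ± 0.07 (limma adjusted p = 0.00492), 0 fell and 7 did not pass (median -0.04). Of 10 genes of the Tor pathway, which controls initiation through nutrients, 3 rose, 0 fell and 7 did not pass (median 0.22). The 3 were Lst8 (0.48 ± 0.09), a partner of the Tor kinase, and REPTOR (0.47 ± 0.08) and REPTOR-BP (0.34 ± 0.07), which encode transcription factors of that pathway. Of 4 termination and recycling genes, eRF3 (0.41 ± 0.07) and pelo (0.33 ± 0.08) rose, 0 fell and 2 did not pass (median 0.19).

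Enzymes that modify elongation factors were among the lists as well. Of 7 hypusine and diphthamide enzymes, 3 rose, 0 fell and 4 did not pass (median 0.32), namely the diphthamide genes Dph4 (0.64 ± 0.12) and Dph5 (0.45 ± 0.08) and the hypusine enzyme gene nero (0.32 ± 0.07), whose product modifies eEF5. Of 3 cytosolic initiation factor genes with other names, 0 passed, and MCTS1 had the smallest p (0.38 ± 0.13, limma adjusted p = 0.0830, and 0.0381 with a variance trend and 0.0456 at or above the median level alone). Of 9 mitochondrial translation factor genes, 2 rose, 3 fell and 4 did not pass (median -0.12), with mIF3 (at least 0.59 ± 0.13), mRRF1 (-0.39 ± 0.06) and mEFTu1 (-0.35 ± 0.07) the largest. For comparison, of 41 genes listed by symbol as cytosolic ribosomal protein genes, 11 rose and 0 fell (median 0.16). That list takes in genes named -like, with RpLP0-like and RpL24-like among those that rose, and whether these encode ribosomal proteins was not checked. Of 18 cytosolic aminoacyl-tRNA synthetase genes, 7 rose and 1 fell (median 0.17). The largest differences in the ribosomal list were those of RpS5b (at least 0.80 ± 0.08), RpLP0-like (0.52 ± 0.11) and RpS7 (0.47 ± 0.06, with -0.27 at its other probe set). In the synthetase list they were those of LeuRS (0.59 ± 0.06), AlaRS (0.34 ± 0.08) and SerRS (0.33 ± 0.06). Without 1 array or more other than young replicate 1, the calls of Gcn2, crc, REPTOR-BP, pelo, nero, mIF3, mEFTu1, RpLP0-like and AlaRS were lost (limma adjusted p = 0.0501 to 0.122). Centring arrays on their medians ended the calls of crc (0.0946) and AlaRS (0.0506), quantile normalization that of AlaRS (0.0666), and averaging probe sets that of RpS7 (difference 0.10, 0.465). Whether the lists differ from the eIF and eEF genes, or from all genes at or above the median level (23.1% rose and 14.2% fell), was not tested.

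**Figure D5:**
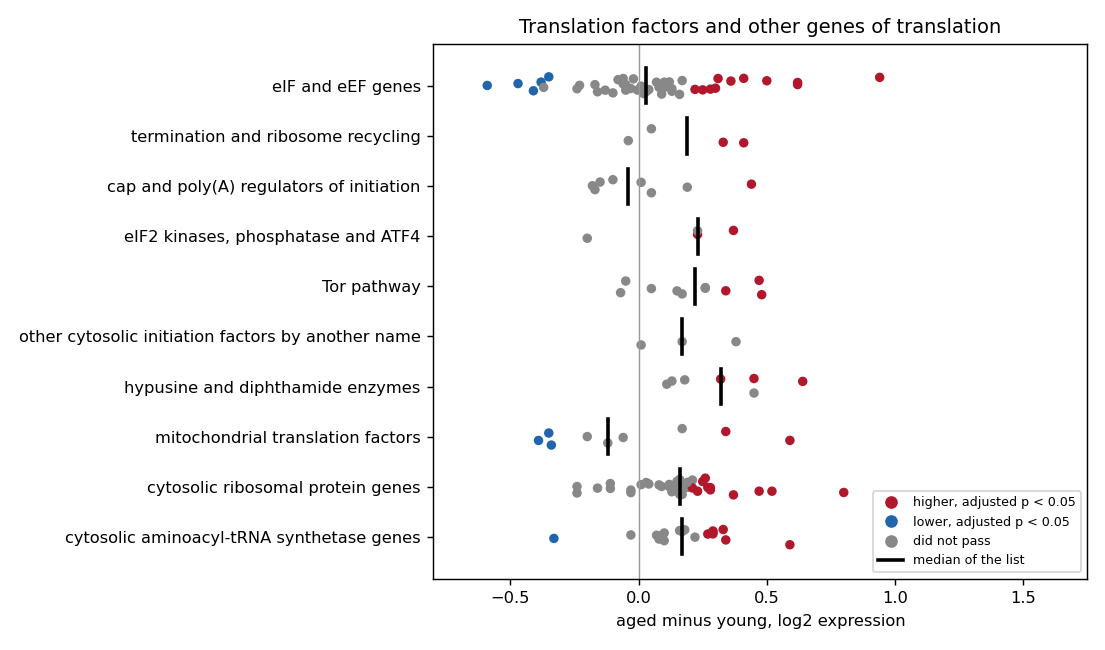
Difference between the ages (aged minus young, log2 expression) of each gene of the eIF and eEF group and of the other lists, coloured by the call, with bars for list medians (points are offset vertically for clarity). The eIF and eEF genes spread from -0.59 to 0.94 around a median of 0.03, and the medians of the other lists lie between -0.12 and 0.32.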

How the data were processed

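The authors deposited RMA expression values on the log2 scale for 6 arrays, 3 per age; per the submitters' processing notes the tools were RMA and limma (versions not given in the sources used here). The quantile step of RMA brings arrays to a common distribution and so sets aside changes in total messenger RNA. The values ran from 2.05 to 13.82 over 18952 probe sets, of which 183 controls stayed out of the tests.

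Gene symbols came from the probe table of the platform (13647 probe sets with 1 symbol, 402 with several, 4720 with none). All 45 member symbols were found in RefSeq's gene table for assembly Release 6 plus ISO1 MT, used for names only. The ages were set against each other by lmFit and eBayes (limma 3.58.1, R 4.3.3, no covariates) over all 18769 probe sets, and checked on simulated data. Intervals are 95% limma intervals. Members and lists were chosen with earlier results of these data known. Array values and full statistics are given for members that passed and for eEFSec, the smallest p of a group without a call; those of eIF4G2, eIF4E3, eIF4E4, eIF4A and eEF1alpha2 were added after their values were seen. From each list the up to 3 largest called differences are named, or the smallest p. Alternatives were the variance prior, a level filter, centring, quantile normalization, array weights, probe set choice, the replicate number as a block and leaving out arrays.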

Additional observations from a re-analysis of the deposited data

How the results depend on the processing

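Leaving out single arrays gave 2302 to 4027 differing probe sets (4071 with all arrays), 6 to 10 members that rose, 3 to 5 that fell and a median of 0.01 to 0.04; on the 4 arrays other than young replicate 2 and aged replicate 3, a setting chosen after seeing the data, the counts were 2492, 5 and 1. By group, single arrays left 1 to 2 eIF2B, 1 eIF3, 1 to 3 other initiation and 0 to 1 eEF1 genes that rose, and 3 eIF3 and 0 to 2 eIF4 genes that fell, with medians of 0.39 to 0.43 (eIF2), 0.10 to 0.15 (eIF2B), -0.02 to -0.0049 (eIF3), -0.12 to -0.05 (eIF4), 0.18 to 0.24 (other initiation), 0.08 to 0.17 (eEF1) and -0.03 to 0.01 (other elongation). With both arrays left out, 0 eIF2B, 1 eIF3, 1 other initiation and 0 eEF1 genes rose, 1 eIF3 and 0 eIF4 genes fell, and the medians of eIF2B and eIF3 were 0.17 and 0.01. Centring moved all differences down: 8 members fell (5 in eIF4), 1 eIF3 gene rose, and the medians were -0.02 (members), 0.36 (eIF2), 0.09 (eIF2B), -0.06 (eIF3), 0.17 (other initiation) and -0.06 (other elongation). The member median was 0.07 with the level filter and 0.05 with array weights. Quantile normalization gave an eIF2B median of 0.09 and 1 eIF3 gene that rose. Without probe sets that can match several transcripts, medians were 0.22 (eIF2B), -0.14 (eIF4), 0.25 (other initiation) and -0.05 (other elongation), and 1 eIF3 gene rose. Averaging the probe sets of a gene, or taking the dimmest, left 1 eIF4 gene that fell and a median of -0.02 each. A variance trend and the level filter each gave 1 eEF1 gene that fell. The causes were not tested.

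Whether the replicate numbers pair the arrays is not labelled. Deviations of same-numbered arrays correlated at 0.103, -0.019 and -0.056. Differently numbered arrays were not compared, so these values cannot decide it. With the replicate number as a block, 1 eIF3 gene rose: eIF3j and eIF5B did not pass (limma adjusted p = 0.0901 and 0.0859). The block ended no other member's call, and of the other genes named it ended those of crc (0.0845) and nero (0.0561).

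Signs turned, among members, only where neither setting passed, except at eIF4EHP, which was 0.09 with probe sets averaged and 0.65 with the dimmest. The others were eIF3c (0.01 with array weights, 0.05 with both arrays left out, -0.04 to 0.04 without single arrays), eIF3d2 (0.01 with both left out, -0.16 to 0.0045), eIF3e (-0.03 with centring, -0.01 with quantiles, -0.003 to 0.02), eIF3f2 (-0.02 to 0.17), eIF4G1 (-0.09 to 0.01), eIF4H2 (-0.03 with centring, -0.13 to 0.13), eIF4E7 (-0.01 with centring), eEF5 (-0.02 with centring) and eEFSec (0.01 with both left out, -0.11 to 0.00068 without single arrays). RpS7 was -0.27 at its other probe set.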

Other observations

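Probe sets shared by eIF4E7 and CG17010 were outside the choice of members. On 1 of the 2 the levels were 3.73, 4.01 and 3.84 in young heads and 3.50, 3.25 and 3.30 in aged heads, below the median of all probe sets (4.90), with a difference of -0.51 ± 0.10 (limma adjusted p = 0.0115). The other differed by -0.02 and did not pass.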
